A study of Brassica oleracea var. italica with 5 samples.

Results

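The ERF and DREB unigenes are the assembled broccoli transcripts whose best *Arabidopsis* match carries a gene symbol with ERF or DREB followed by a digit. The deposited annotation held 55 such symbols, and 2 of them belonged to eRF1 release factors of protein synthesis and were left out. This gave 53 family members of 19441 unigenes. Reads of 49 members summed to at least 20 over the 5 libraries, and ratios were taken for these only. The 4 others were *ERF098* with 16 reads, *ERF035* with 14, *ERF020* with 8 and *ERF062* with 5, and the member just above the limit was *ERF1* with 28 reads. A further 36 unigenes matched loci of the same family whose symbols are written in another way, such as *RAP2.4*, *CBF2*, *ATERF-4*, *ABI4* and *RRTF1*, and they are set beside the members below.

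The libraries came from wild-type broccoli (*Brassica oleracea* var. *italica*) of the cultivar Qingxiu. They were seeds labelled as germinated at day 0, cotyledons taken at 3, 7 and 11 days, and the first true leaves, called euphyllas, taken at 11 days. The seeds had been surface-sterilised with NaClO and left overnight on wet filter paper, so they were imbibed rather than dry, and the sprouts grew in soil mixture under long days. Each tissue was 1 library made from 3 pooled biological replicates, so no spread between plants could be measured and any ratio compares 2 libraries, not 2 conditions. The age of a sprout and the hour of its harvest cannot be told apart in this design.

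ERF and DREB proteins form the part of the AP2/ERF family that has a single AP2 DNA-binding domain. The DREB groups (I to IV) mostly bind the dehydration-responsive element of drought, cold and heat genes, while the ERF groups (V to X) mostly bind the GCC box of ethylene and defense genes. Many of these genes are switched on within minutes by wounding, chitin, cold, drought or touch, and some, such as the repressors of group VIII, switch target genes off. All group numbers and gene roles given here were established in *Arabidopsis*. A *Brassica* genome carries several copies of many *Arabidopsis* genes, and 1 unigene per match may hold reads of more than 1 copy.

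The mapped reads ranged between 6802615 in euphyllas and 10312625 in 11 day cotyledons. A single read corresponded to a normalized count between 0.708 in seeds and 1.16 in euphyllas, and a count of 0 reads (an upper limit of 3 reads) allowed a normalized count of up to 2.12 in seeds and 3.47 in euphyllas. All 4 seed reserve markers had their highest value in seeds and all 4 green tissue markers had it in 7 or 11 day cotyledons. Of the 4 young leaf markers 3 were highest in euphyllas. The other, *MCM3*, was highest in 3 day cotyledons, with 1274 normalized counts against 1257 in euphyllas. All 4 were higher in euphyllas than in 11 day cotyledons. The 5 clock genes that peak near dawn were all highest in 7 day cotyledons, where the 5 that peak near dusk were all lower than in 3 day cotyledons. The dawn gene *LHY* had 2690.1 normalized counts in 7 day cotyledons and 7.12 in 3 day cotyledons, and the dusk gene *TOC1* had 0 and 1167. Within bulk tissue, fewer cells of a type and less RNA per cell cannot be told apart.

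The members were few in reads and changed much between libraries. They took 8711 reads of seeds, then 1991, 6179 and 10948 at 3, 7 and 11 days in cotyledons, and 6567 of euphyllas. The median member had 163 reads over the 5 libraries, and 9 members had 1000 reads or more. The ratio of the highest to the lowest library had a median of 4.36 on the log2 scale (normalized count + 1) for the members and 2.20 for all unigenes. The library with the highest value held a median of 48.8% of a member's summed normalized counts, against 35.9% for all unigenes. The median level was 33.7 normalized counts per kb for the members and 57.8 for all unigenes, and the part of low counts in these ratios was not tested.

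Seeds and 11 day cotyledons held the highest values of 32.7% and 34.7% of the members, against 29.3% and 26.6% of all unigenes. Of the 49 members, 16 were highest in seeds, then 3, 9 and 17 at 3, 7 and 11 days in cotyledons, and 4 in euphyllas. All unigenes gave 5306, 2707, 2896, 4809 and 2386 of 18104. The lowest values fell mainly in 3 day cotyledons, which held the lowest value of 19 members, or 38.8%, against 17.2% of all unigenes. The median normalized count of the members was 32.5 in seeds, then 11.2, 31.5 and 41.8 at 3, 7 and 11 days in cotyledons, and 18.5 in euphyllas, while that of all unigenes stayed between 96.6 and 112. Reads were absent in 3 day cotyledons for 10 of the 49 members, and in each other library for 4 or 5.

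**Figure D1:**
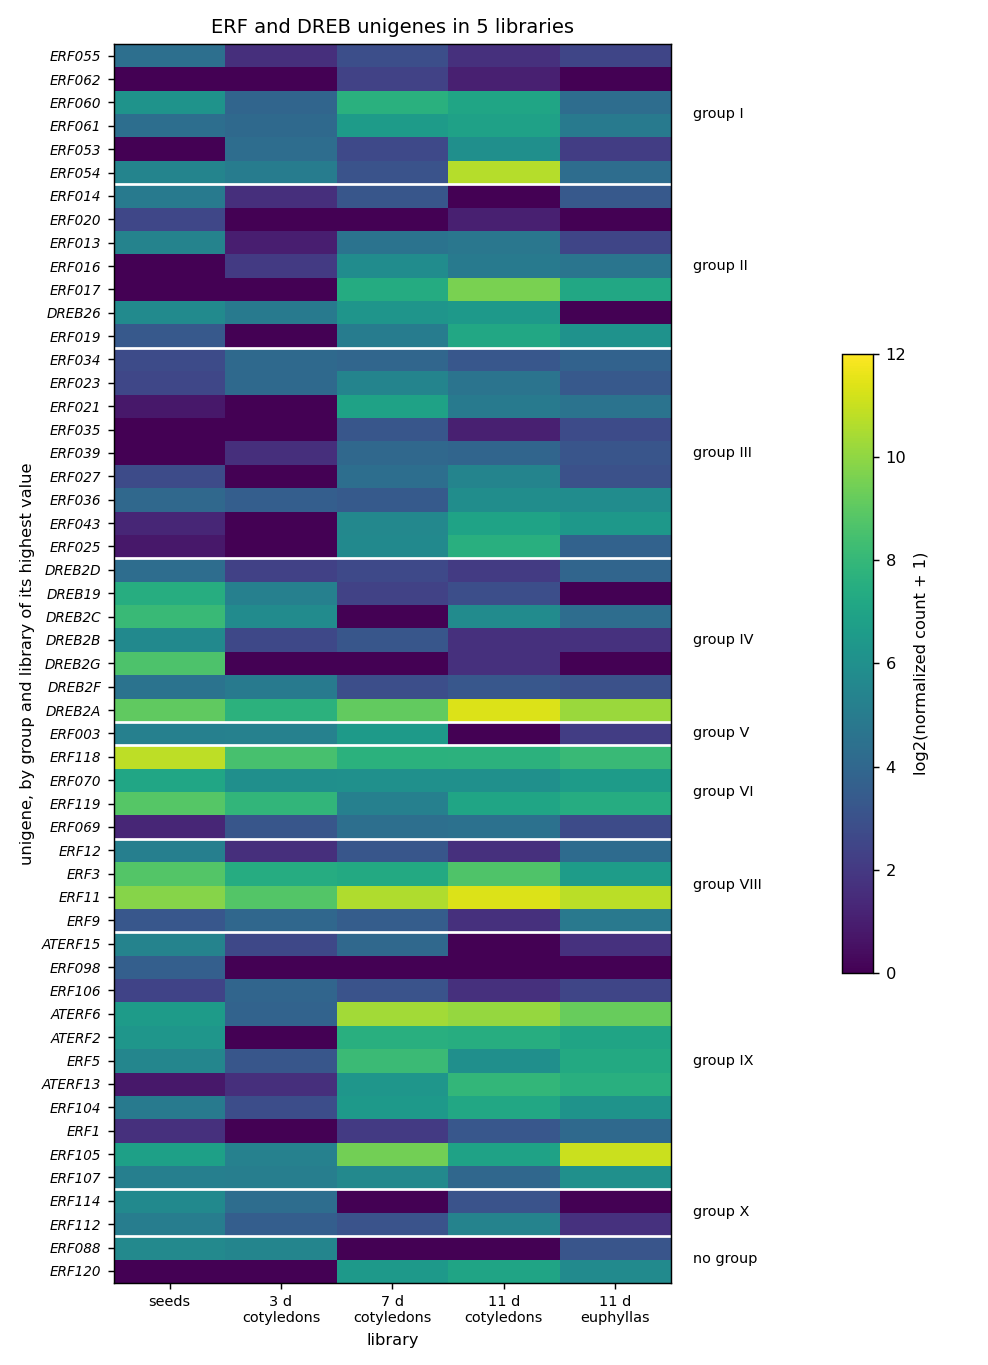
Normalized counts of the 53 ERF and DREB unigenes on the scale log2(normalized count + 1), with 1 column per library and unigenes arranged by group and by the library of their highest value. The 3 day column is dark in groups II, III and IX, where 4 of 8 tested members of group III had 0 reads, and *DREB2A*, *ERF11*, *ERF054* and *ERF105* are the bright cells of the 11 day columns.

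Levels between members were compared per kb of unigene. The mean over the libraries was 577 normalized counts per kb for *ERF11*, 467 for *ERF105*, 409 for *DREB2A*, 399 for *ATERF6* and 296 for *ERF118*. These 5 unigenes made up 51.3% of the summed level of the 53 members. At the low end, *ERF098* and *ERF020* had 3.42 and 3.37 normalized counts per kb. The 5 leaders belong to 4 groups, namely the repressors of group VIII, the defense activators of group IX, the DREB2 factors of group IV and group VI.

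A member was called higher or lower where its normalized counts differed at least 2-fold and the exact 95% interval of the ratio, given in parentheses after the fold, excluded 1. These intervals and the limits for 0 reads cover counting error only. They are too narrow, because PCR copies and reads that were counted repeatedly are not independent molecules. Where a library had 0 reads, 3 reads were put in its place and the fold is written as at least that large.

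In 3 day cotyledons most members that changed were lower than in seeds. Of the 49 members 29 were called, against 43.0% of all unigenes. They were 24 lower and 5 higher members, while 21.2% of all unigenes were lower and 21.8% higher. Their median log2 ratio was -1.27, against -0.06 over all unigenes. The 24 lower members included 6 of the 7 DREB2 factors, 6 of the 10 tested members of group IX, 3 of the 4 repressors of group VIII and both members of group X. The 5 higher ones, *ERF023*, *ERF034*, *ERF053*, *ERF069* and *ERF106*, had at most 18.3 normalized counts in 3 day cotyledons. No member with 100 reads or more over the libraries was among them.

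In 7 day cotyledons the direction turned. Against 3 day cotyledons 25 members were higher and 8 lower, while 22.7% of all unigenes were higher and 14.8% lower (37.5% in either direction). The median log2 ratio was 1.36 for the members and 0.04 for all unigenes. The higher members included 6 of the 8 tested members of group III, 5 of the 6 of group II and 7 of the 10 of group IX. The 8 lower ones included *DREB2C*, *DREB19* and *DREB2F* of group IV. Both of these comparisons use the same 3 day library, so a low value there enters both, and against seeds 22 members were higher in 7 day cotyledons and 18 lower (29.2% and 24.8% of all unigenes). Likewise 28 members were higher and 7 lower in 11 than in 3 day cotyledons (27.7% and 23.6% of all unigenes).

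In 11 day cotyledons 15 members were higher and 8 lower than in 7 day cotyledons. The shares over all unigenes were 18.5% and 17.8%, or 36.2% in either direction, and the median log2 ratio was 0.15 for the members and 0.00 for all unigenes. The DREB groups had 10 higher and 2 lower of 26 tested, and the ERF groups had 5 higher and 6 lower of 21. Euphyllas, sampled at the same age, had 8 members higher and 19 lower than 11 day cotyledons, against 20.2% and 25.1% of all unigenes (45.3% in either direction). The DREB groups gave 2 higher and 13 lower, and the ERF groups 5 higher and 5 lower. Set against 7 day cotyledons instead, euphyllas had 10 members higher and 13 lower (11.1% and 16.5% of all unigenes). The difference between the DREB and ERF groups was not tested, and it covers members by symbol only. *ATERF-4*, *ATERF-8* and *RRTF1*, loci of ERF groups outside the symbol rule, were higher at 11 than at 7 days and lower in euphyllas. *CRF2* and *CRF3*, also outside the rule, were higher in euphyllas than in 11 day cotyledons.

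**Figure D2:**
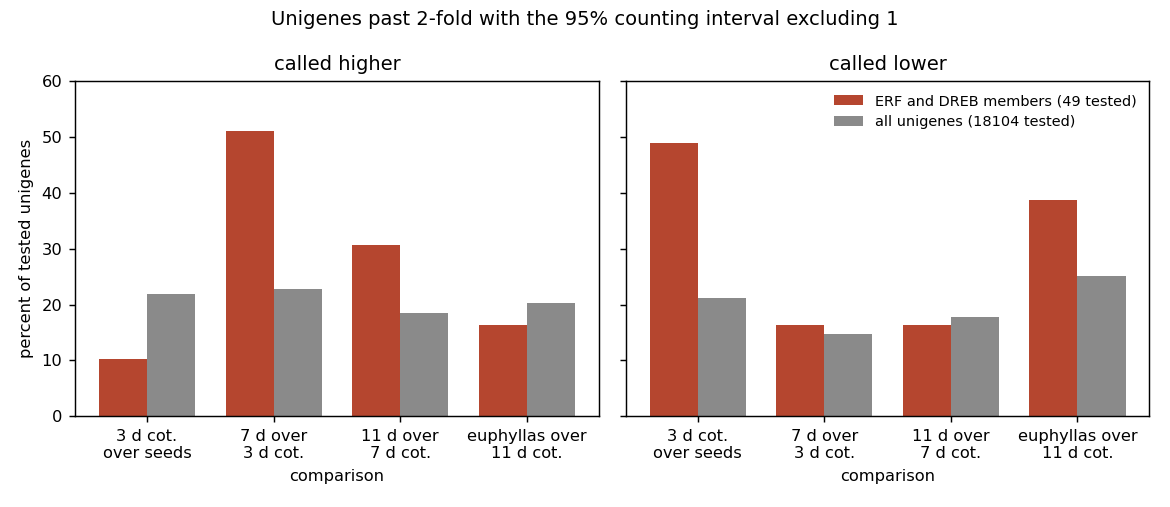
Percent of tested unigenes called higher (left panel) and lower (right panel) in each of 4 comparisons, for the 49 ERF and DREB members (red, left bar of each pair) and for all 18104 unigenes (grey, right bar). The members stand farthest above all unigenes in the lower calls of 3 day cotyledons over seeds (24 members) and in the higher calls of 7 over 3 day cotyledons (25 members). They also stand above them in the higher calls of 11 over 7 day cotyledons (30.6% against 18.5%). The same holds for the lower calls of euphyllas over 11 day cotyledons (38.8% against 25.1%).

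The other family loci were also mostly lower in the first comparison. Of the 34 tested, 18 were lower and 6 higher in 3 day cotyledons relative to seeds. At 7 days 11 were higher and 7 lower than at 3 days, at 11 days 12 were higher and 3 lower than at 7 days, and in euphyllas 8 were higher and 16 lower than in 11 day cotyledons. All 83 tested family unigenes together gave 11 higher and 42 lower, 36 and 15, 27 and 11, and 16 and 35 in the same 4 comparisons. The shares over all unigenes are those given above beside the members.

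Group IV, the DREB2 factors, had 5 of its 7 members highest in seeds. *DREB2A*, the main activator of dehydration and heat genes, was the exception in level and pattern. It had 529 normalized counts in seeds, then 212, 547 and 2625 at 3, 7 and 11 days in cotyledons, and 1181 in euphyllas. It was 2.50-fold (2.14 to 2.93) lower in 3 day cotyledons than in seeds, 2.59-fold (2.20 to 3.05) higher at 7 than at 3 days, and 4.80-fold (4.36 to 5.28) higher at 11 than at 7 days. Euphyllas had 2.22-fold (2.07 to 2.39) less than 11 day cotyledons. The calls at 7 over 3 days and in euphyllas were lost with scaling by total reads. Its unigene of 2493 bp was longer than the 1721 bp listed for its match AT5G05410, on *Arabidopsis* chromosome 5 between bases 1602205 and 1603926.

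The other DREB2 members were mostly seed transcripts. *DREB2G* had 567 reads in seeds, then 0, 0 and 2 at 3, 7 and 11 days in cotyledons, and 0 in euphyllas, which made 401 normalized counts in seeds and at most 2.14 elsewhere. It was at least 131-fold lower in 3 day cotyledons than in seeds, and 99.5% of its summed normalized counts lay in seeds. *DREB2C*, a factor linked to heat tolerance and abscisic acid, had 282 normalized counts in seeds, then 53.9, 0 and 53.6 at 3, 7 and 11 days in cotyledons, and 18.5 in euphyllas. The value was 5.24-fold (3.93 to 7.11) lower in 3 day cotyledons than in seeds, then at least 17.1-fold lower at 7 than at 3 days and at least 17.0-fold higher at 11 than at 7 days. *DREB2C* thus dropped out in the 7 day library alone.

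*DREB19*, whose overexpression raises tolerance to salt and drought, was lower after each of the first comparisons, with 175 normalized counts in seeds, 36.6, 4.20 and 6.43 in the cotyledons and 0 in euphyllas. Its lower calls were 4.77-fold (3.36 to 6.97) in 3 day cotyledons against seeds and 8.71-fold (3.12 to 33.7) in 7 against 3 day cotyledons. *DREB2B*, the closest relative of *DREB2A*, had 50.2 normalized counts in seeds and between 2.14 and 8.40 in the other libraries. *DREB2D* had 18.4 in seeds, 4.07, 5.25 and 3.22 in the cotyledons and 13.9 in euphyllas. *DREB2F* had 22.6 in seeds, 28.5, 6.30 and 8.58 in the cotyledons and 6.93 in euphyllas. The last 3 rest on 88 reads or fewer each over all libraries. *ABI4*, the abscisic acid regulator of the same group, was also a seed transcript here, with 459 normalized counts in seeds, 10.2, 0 and 2.14 in the cotyledons and 0 in euphyllas.

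Group I held the member with the largest fold measured between successive ages. *ERF054* had 41.0 normalized counts in seeds, then 31.5, 7.35 and 1645 at 3, 7 and 11 days in cotyledons, and 18.5 in euphyllas. That is 224-fold (108 to 557) higher in 11 than in 7 day cotyledons and 89.0-fold (54.6 to 156) lower in euphyllas than in 11 day cotyledons. The 11 day cotyledon library thus held 94.4% of its summed normalized counts. *ERF053*, another member of the group and a drought-tolerance factor, had 62.2 normalized counts in 11 day cotyledons against 5.25 in 7 day cotyledons, and 3.47 in euphyllas.

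*ERF060* and *ERF061* of group I came up earlier. *ERF060* had 71.5 normalized counts in seeds, 14.2, 192 and 131 in the cotyledons and 18.5 in euphyllas, and *ERF061* had 19.1, then 16.3, 94.5 and 117, and 30.0. At 7 days *ERF060* was 13.5-fold (7.84 to 25.2) and *ERF061* 5.81-fold (3.39 to 10.6) higher than at 3 days. *ERF055* had at most 19.8 normalized counts, in seeds. All but *ERF055* of the 5 tested members of group I were lower in euphyllas than in 11 day cotyledons. Their relatives *RAP2.4* and *RAP2-13*, outside the symbol rule, were also lower in euphyllas, with 1276 and 158 normalized counts against 2952 and 431 in 11 day cotyledons.

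Of the 6 tested members of group II, 5 were higher at 7 than at 3 days, and 2 were higher and 1 lower at 11 than at 7 days. *ERF017* had 0 reads in seeds and 3 day cotyledons, then 167 normalized counts at 7 days, 768 at 11 days and 147 in euphyllas. It was at least 54.7-fold higher at 7 than at 3 days, 4.60-fold (3.87 to 5.49) higher at 11 than at 7 days, and 5.23-fold (4.33 to 6.37) lower in euphyllas than in 11 day cotyledons. *ERF019*, known from leaf senescence and immunity, followed the same course at a lower value, with 9.20 normalized counts in seeds, 0, 31.5 and 147 in the cotyledons and 69.3 in euphyllas. *DREB26* had 52.4 normalized counts in seeds, 28.5, 74.6 and 90.1 in the cotyledons and 0 in euphyllas, at least 26.0-fold lower there than in 11 day cotyledons. It was the only tested member of its group without a read in euphyllas. *ERF013*, *ERF014* and *ERF016* of this group had between 0 and 55.7 normalized counts in every library.

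Group III, the relatives of the growth regulator TINY, had few reads before day 7. Its 9 members summed to 34.7 normalized counts in seeds, 45.8, 328 and 490 in the cotyledons and 216 in euphyllas. *ERF043* had 1.42 in seeds, 0, 47.3 and 124 in the cotyledons and 82.0 in euphyllas, and *ERF025* had 0.708, then 0, 51.5 and 189, and 12.7. *ERF025* was 14.8-fold (8.10 to 30.3) lower in euphyllas than in 11 day cotyledons, while *ERF043*, at 1.52-fold, was not called. *ERF021* instead peaked at 7 days, with 0.708 normalized counts in seeds, 0, 121 and 28.9 in the cotyledons and 23.1 in euphyllas, and was 4.17-fold (2.72 to 6.60) lower at 11 than at 7 days. *ERF036* was high in both 11 day libraries, with 15.6 normalized counts in seeds, 11.2, 9.45 and 59.0 in the cotyledons and 55.5 in euphyllas. *ERF023*, *ERF027*, *ERF034* and *ERF039* had between 0 and 41.8 normalized counts in every library.

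The CBF branch of group III carries no ERF or DREB symbol in the annotation and was set beside it. In 7 day cotyledons *CBF2* had 52.5 normalized counts, *CBF4* 96.6 and *DDF1* 588, against 4.07, 6.10 and 8.14 in 3 day cotyledons. *CBF2* had 0 reads in 11 day cotyledons, where *DDF1* reached 1557 normalized counts. *CBF1* was found mainly in seeds, with 24.8 normalized counts there and at most 2.31 elsewhere.

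**Figure D3:**
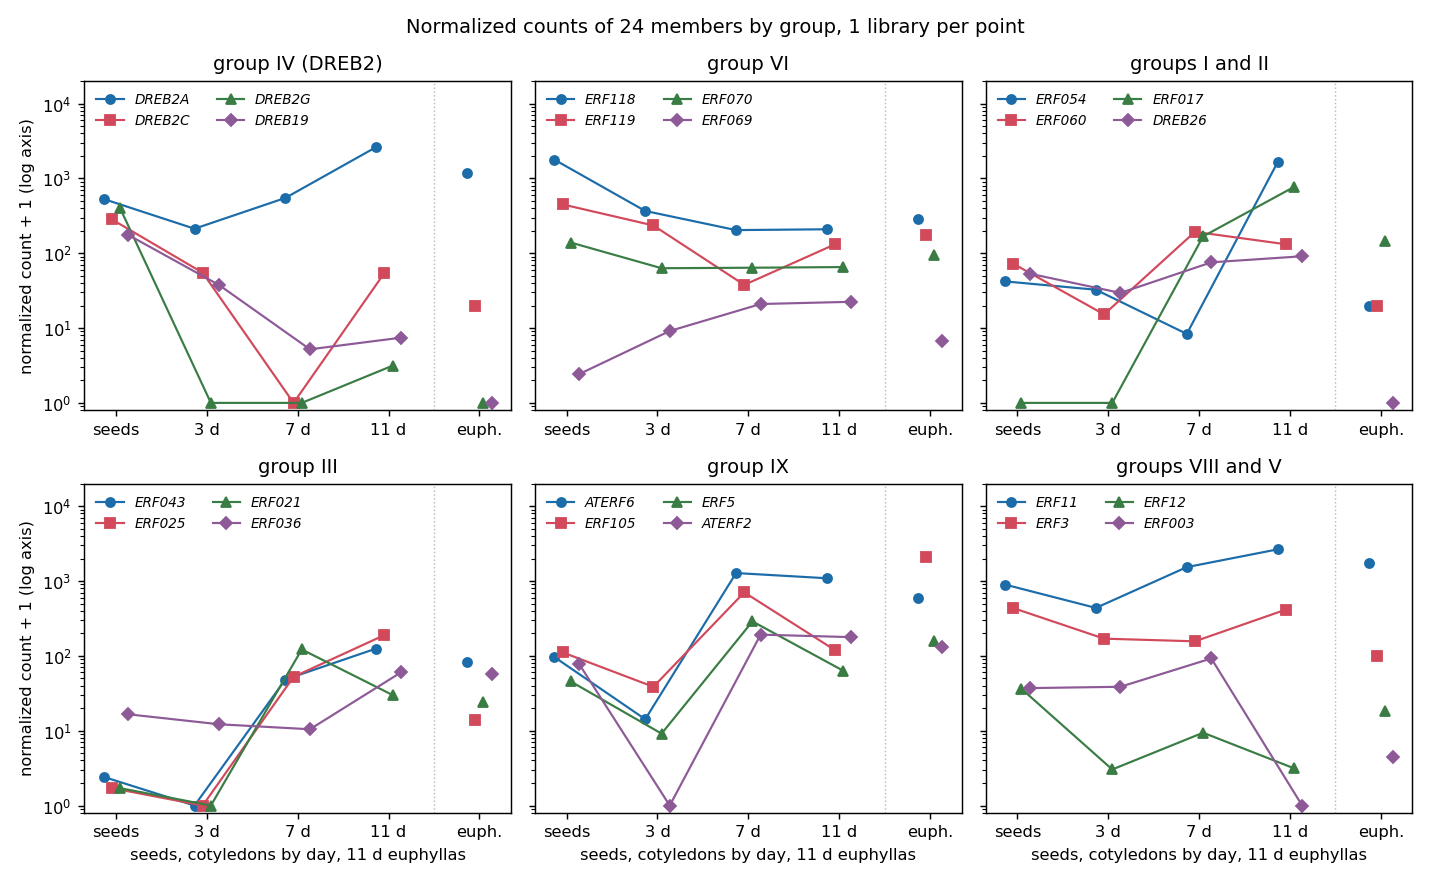
Normalized counts + 1 on a log axis for 24 members in 6 panels, each point 1 library, with lines joining seeds and cotyledons of 3, 7 and 11 days and euphyllas shown apart. Points are set slightly apart sideways. *DREB2C*, *DREB2G*, *DREB19* and *ERF118* are highest in seeds, *ERF017*, *ERF043* and *ERF025* climb after 3 days, and *ERF105* in group IX is highest in euphyllas at 2074 normalized counts.

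Among the ERF groups, group VI, that of the cytokinin response factors, had most of its reads in seeds. Its 4 members summed to 2368 normalized counts in seeds, then 670, 322 and 425 at 3, 7 and 11 days in cotyledons, and 554 in euphyllas. *ERF118* had 1780 normalized counts in seeds, 366, 203 and 208 in the cotyledons and 282 in euphyllas. *ERF119* had 449 in seeds, 234, 36.8 and 131 in the cotyledons and 172 in euphyllas, and *ERF070* had 138, then 62.0, 63.0 and 64.3, and 93.6. In 3 day cotyledons *ERF118* was 4.86-fold (4.35 to 5.44) and *ERF070* 2.22-fold (1.66 to 3.02) lower than in seeds, while *ERF119* at 1.92-fold was not called. *ERF069* ran the other way, with 1.42 normalized counts in seeds and between 5.78 and 21.4 in the other libraries. Of the 6 named cytokinin response factors outside the symbol rule, 4 were higher in euphyllas than in 11 day cotyledons. Over all unigenes 20.2% were higher and 25.1% lower. *CRF2* had 75.1 against 23.6 normalized counts and *CRF3* 32.4 against 5.36, while *CRF1* and *CRF5* had only 14 reads each in euphyllas. *CRF4* went the other way, with 0 in euphyllas against 24.7 normalized counts in 11 day cotyledons.

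Group VIII holds repressors that carry an EAR motif. *ERF11*, which represses ethylene synthesis genes, had more reads than any other member, 7144 over the libraries. It had 896 normalized counts in seeds, 436, 1533 and 2648 in the cotyledons and 1756 in euphyllas. It was 2.05-fold (1.84 to 2.30) lower in 3 day cotyledons than in seeds and 3.51-fold (3.15 to 3.92) higher at 7 than at 3 days. The first of these calls lay at the limit and was lost with TMM scaling. *ERF3*, a second repressor, was alike high in seeds and 11 day cotyledons, with 434 normalized counts in seeds, 169, 155 and 414 in the cotyledons and 99.4 in euphyllas. It was 4.16-fold (3.29 to 5.32) lower in euphyllas than in 11 day cotyledons.

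*ERF12* and *ERF9*, also repressors, had few reads, with 35.4 and 8.49 normalized counts in seeds and 17.3 and 27.7 in euphyllas, where 11 day cotyledons had 2.14 for both. *ATERF-4* and *ATERF-8*, repressors of the same group outside the symbol rule, peaked with *ERF11* in 11 day cotyledons. *ATERF-4* had 541 normalized counts in seeds, 72.2, 898 and 2940 in the cotyledons and 768 in euphyllas.

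Group IX, the activators of defense genes, had 6 of its 10 tested members lowest in 3 day cotyledons, and its members differed in where they peaked. *ATERF6*, a target of the MAP kinases of immunity that also restrains leaf growth under osmotic stress, had 95.5 normalized counts in seeds, 13.2, 1277 and 1088 in the cotyledons and 595 in euphyllas. At 7 days it was 96.6-fold (56.3 to 182) higher than at 3 days. *ATERF2*, an activator of jasmonate-responsive defense genes, had 77.8 normalized counts in seeds, 0, 191 and 177 in the cotyledons and 129 in euphyllas. *ATERF13* had 0.708 in seeds, 2.03, 77.7 and 243 in the cotyledons and 187 in euphyllas. At 7 days *ATERF2* was at least 62.7-fold and *ATERF13* 38.2-fold (10.2 to 321) higher than at 3 days.

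*ERF105* and *ERF5* formed a second pattern within group IX, with peaks at 7 days and in euphyllas and a dip in 11 day cotyledons. *ERF105*, a cold-tolerance factor, had 110 normalized counts in seeds, 37.6, 705 and 118 in the cotyledons and 2074 in euphyllas. It was 5.98-fold (4.88 to 7.38) lower in 11 than in 7 day cotyledons and 17.6-fold (14.5 to 21.5) higher in euphyllas than in 11 day cotyledons. *ERF5*, a chitin-response factor, had 44.6 normalized counts in seeds, 8.14, 288 and 62.2 in the cotyledons and 155 in euphyllas. It was 4.63-fold (3.48 to 6.26) lower in 11 than in 7 day cotyledons and 2.49-fold (1.82 to 3.45) higher in euphyllas than in 11 day cotyledons. *ERF104*, a MAP kinase substrate released on flagellin perception, was instead highest in 11 day cotyledons, with 29.7 normalized counts in seeds, 6.10, 90.3 and 145 in the cotyledons and 70.5 in euphyllas.

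*ERF107*, known as DEWAX and a repressor of wax synthesis, had 34.7 normalized counts in seeds, 33.6, 49.4 and 15.0 in the cotyledons and 64.7 in euphyllas. *ERF1*, which joins ethylene and jasmonate signals upstream of defensins, was not called in any of the 4 successive comparisons and had at most 16.2 normalized counts. *ATERF15* was mostly a seed transcript with 40.3 normalized counts there, and *ERF106* had at most 14.2 in any library. Outside the rule, *ATERF-1* had 1480 normalized counts in seeds, 3198, 4328 and 7867 in the cotyledons and 1339 in euphyllas.

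Smaller groups added separate patterns. *ERF003* of group V, the group of the wax regulators SHINE, had 36.1 normalized counts in seeds, 37.6, 91.4 and 0 in the cotyledons and 3.47 in euphyllas, so it was at least 28.4-fold lower at 11 than at 7 days. In group X, that of wound and regeneration factors, *ERF112* had 32.5 in seeds, 11.2, 7.35 and 40.7 in the cotyledons and 2.31 in euphyllas, and *ERF114*, a promoter of bud outgrowth, had 51.7, then 18.3, 0 and 7.51, and 0. *RRTF1*, a redox-responsive member of that group outside the rule, had 54.9, 3043 and 10253 normalized counts at 3, 7 and 11 days in cotyledons. *ERF120* had reads only from 7 days on (88.2 and 130 normalized counts in cotyledons of 7 and 11 days, 53.2 in euphyllas). *ERF088* had 48.8 in seeds and 42.7 in 3 day cotyledons but 0 in both later cotyledon libraries and 8.09 in euphyllas.

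Euphyllas and 11 day cotyledons came from sprouts of the same age, but their clock genes differed. The 5 clock genes near dawn summed to 304 normalized counts in 11 day cotyledons and 32.4 in euphyllas. The 5 near dusk summed to 2312 and 3479. The part of clock phase in this comparison was not tested. The 8 members higher in euphyllas were *ERF105*, *ERF9*, *ERF12*, *ERF107*, *DREB2D*, *ERF5*, *ERF014* and *ERF088*, of which 3 belong to group IX and 2 to group VIII. The 19 lower ones were led by *ERF054*, *DREB26*, *ERF053*, *ERF112* and *ERF025*, and 11 of them came from groups I, II and III. *ERF11* and *ATERF6*, among the most abundant, were 1.51-fold and 1.83-fold lower and not called. Scaling by total reads in place of the size factors moved the median log2 ratio of all unigenes in this comparison to 0.36, against -0.08. The median of the members was -0.10 with total reads, against -0.59 with the size factors. Total reads called 22 of the 49 members, 10 higher and 12 lower. Over all 18104 tested unigenes, 8734 were called with total reads and 8202 with the size factors. With the size factors 55.1% of the members were called, against 45.3% of all unigenes, and this excess was not seen with total reads. The split of all unigenes by direction with total reads is not given here. With halved counts or a stricter interval *DREB2D*, *ERF014*, *ERF088* and *ERF12* were no longer called higher.

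**Figure D4:**
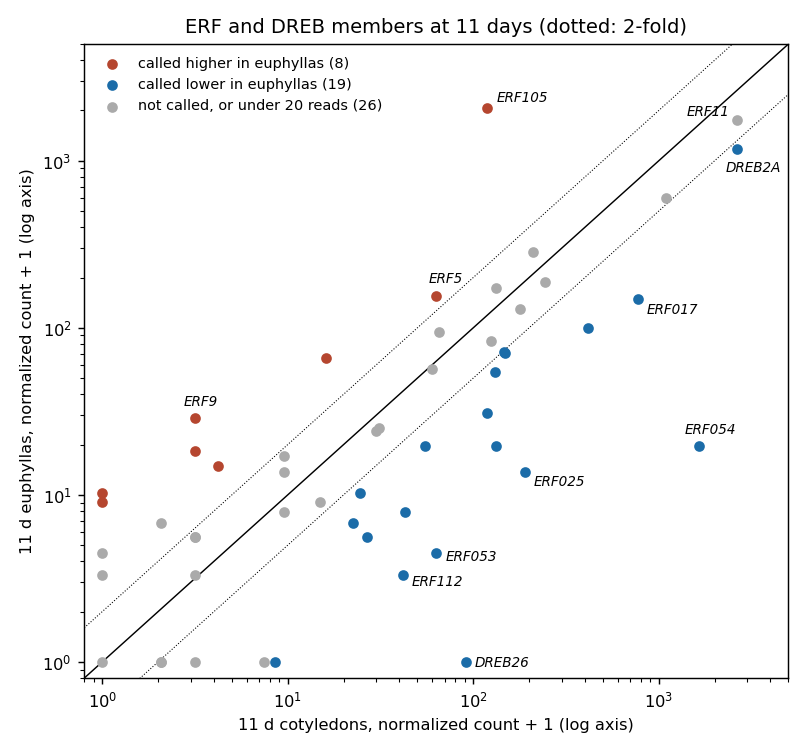
Each of the 53 members by its normalized count + 1 in 11 day euphyllas (vertical) and in 11 day cotyledons (horizontal), both on log axes, with the line of equality and dotted lines at 2-fold. The 19 members called lower in euphyllas lie below the line, with *ERF054* at 18.5 against 1645 normalized counts, and *ERF105* lies farthest above it among the abundant ones at 2074 against 118.

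Genes of rapid stress and wounding responses changed in the same comparisons. Of the 13 on this list with a unigene, 8 were lower and 2 higher in 3 day cotyledons relative to seeds, 11 were higher and 0 lower at 7 than at 3 days, 9 were higher and 1 lower at 11 than at 7 days, and 1 was higher and 11 lower in euphyllas than in 11 day cotyledons. In the same order, 21.8% of all unigenes were higher and 21.2% lower, then 22.7% and 14.8%, 18.5% and 17.8%, and 20.2% and 25.1%. The same shares stand beside the counts of the lists below. *MPK3*, a MAP kinase of immunity, had 691 normalized counts in seeds, 223, 2417 and 9724 in the cotyledons and 2467 in euphyllas. *JAZ1*, a jasmonate repressor that is itself jasmonate-induced, had 577, then 17.3, 2033 and 10580.0, and 626. *TCH4*, a touch-induced cell wall enzyme, had 699, then 170, 1777 and 6398, and 1485. The summed level of the list was 4361 normalized counts in seeds, 1475, 14810 and 46047 in the cotyledons and 11470 in euphyllas. The part of these responses and of the clock phase in the members' values was not tested.

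Genes that make and perceive ethylene were counted as the pathway upstream of the ERF groups. Of the 9 tested synthesis genes, 1 was higher and 5 lower in 3 day cotyledons relative to seeds, 4 higher and 1 lower at 7 than at 3 days, 1 higher and 2 lower at 11 than at 7 days, and 0 higher and 2 lower in euphyllas than in 11 day cotyledons. The 2 lower in euphyllas lay near the 25.1% of all unigenes. *ACS2* and *ACS6*, synthases of the ethylene precursor, had 1453 and 1277 normalized counts in 7 day cotyledons, against 28.5 and 34.6 in 3 day cotyledons. *ACO1*, an oxidase of the last step, was a seed transcript, with 773 normalized counts in seeds and at most 9.65 elsewhere.

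Of the 14 perception and signaling genes, 1 was higher and 8 lower in 3 day cotyledons relative to seeds, 4 higher and 0 lower at 7 than at 3 days, 2 higher and 0 lower at 11 than at 7 days, and 0 higher and 4 lower in euphyllas than in 11 day cotyledons. The 2 higher at 11 over 7 days and the 4 lower in euphyllas lay near the 18.5% and 25.1% of all unigenes. The receptor *ETR2* had 911 normalized counts in seeds and at most 10.2 elsewhere, which made it 89.5-fold lower in 3 day cotyledons. *EIN3* and *EIL1*, the transcription factors at the end of the pathway, had 505 and 142 normalized counts in seeds, 170 and 314 in 3 day, 276 and 748 in 7 day, and 637 and 447 in 11 day cotyledons, and 305 and 592 in euphyllas. *CTR1*, the kinase that keeps the pathway off, and *EIN2*, its central transducer, were not called in any of the 4 comparisons.

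Downstream, the 9 tested regulators and targets of CBF and DREB2 factors had 3 higher and 1 lower in 3 day cotyledons relative to seeds, 3 and 3 at 7 over 3 days, 3 and 1 at 11 over 7 days, and 2 higher and 6 lower in euphyllas than in 11 day cotyledons. *RD29A*, the classic drought and cold target, had 21.2 normalized counts in seeds, 164, 498 and 5642 in the cotyledons and 699 in euphyllas, so it shared with *DREB2A* its highest library and differed from it in seeds. *RD29B* had 159 in 3 day cotyledons, against 21.9 in seeds, and 0, 15.0 and 4.62 in the later libraries. The 4 tested defense targets of ERF1 gave 3 higher and 1 lower, 2 and 1, 2 and 0, and 0 and 2 in the same order. *HEL* and *CHIB*, pathogenesis-related proteins, had 2.31 and 15.0 normalized counts in euphyllas, against 678 and 472 in 11 day cotyledons. These 2 targets were highest in 11 day cotyledons, while the 2 defensins of the list were highest in 3 day cotyledons.

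Among the annotation terms that were looked up, DNA-binding transcription factor activity was the only one that all 53 members carried. Their other terms were not counted. Response to chitin was listed for 16 of the 53, or 30.2%, against 1.98% of all unigenes, and ethylene-activated signaling for 12. Of the 14 tested chitin members, 11 were higher and 1 lower at 7 than at 3 days, and of all 376 tested unigenes with this term 240 were higher and 19 lower. In 3 day cotyledons relative to seeds the chitin members gave 0 higher and 10 lower, and all unigenes with the term 50 and 174. At 11 over 7 days they gave 5 higher and 3 lower, against 169 and 32, and in euphyllas over 11 day cotyledons 3 and 6, against 19 and 216. Response to water deprivation was listed for 8 members, to cold for 3 and to wounding for 2. The terms come from the *Arabidopsis* matches and are not measurements on broccoli.

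The assembled length differed from that of all unigenes. The members had a median of 1221 bp, between 211 and 2519 bp, against 1853 bp for all unigenes. The unigene was longer than the listed length of its matched gene in 35 of 53 members (66.0%), against 35.3% of the 18224 unigenes with such a length. For *ERF11* it was 2519 bp against 971 bp. Whether reads of a neighbouring gene were counted was not tested, and 4 pairs of members lie within 10 kb of each other in *Arabidopsis*. *ERF12* and *ERF11* are 3228 bp apart on chromosome 1, *ERF098* and *ERF1* 5577 bp apart on chromosome 3, *ATERF2* and *ERF5* 7115 bp and *ERF107* and *ERF104* 1061 bp apart on chromosome 5. Only *ATERF2* and *ERF5* had their highest value in the same library, that of 7 day cotyledons.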

How the data were processed

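The authors assembled the trimmed MiSeq read pairs of all libraries with Velvet and Oases, named unigenes by their *Arabidopsis* or nr match, mapped reads with Bowtie and scaled them with DESeq. Of these tools, no version is given in the sources used here. The deposited tables, 1 for each of 10 pairs of libraries, hold raw counts per unigene and a normalized signal, which the authors made by dividing each count by a DESeq size factor. The counts of a library were identical in all tables. The 20 RPKM columns and the authors' own comparison columns (fold, log2 ratio, p-value and FDR) were not used. Columns of other samples numbered 0. Gene names, lengths and coordinates are those of the annotation deposited by the authors, whose *Arabidopsis* build is not stated.

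Ratios were computed with Python 3.11.15, numpy 2.4.6, pandas 2.3.3 and scipy 1.17.1, and figures with matplotlib 3.10.9. Intervals are exact conditional binomial ones (Clopper-Pearson, 95%), scaled by the size factors. No p-value was computed, since each tissue is 1 library. Medians of log2 ratios used a pseudocount of 1. The calls were tested on simulated data. The simulated counts varied by counting error only, so that test says nothing of variation between plants or of reads counted repeatedly. Alternatives were scaling by total reads or TMM factors (edgeR 4.0.16, R 4.3.3), other minimum reads, a 4-fold limit, a stricter interval, halved counts and other reference libraries. Counts exceed the trimmed read pairs, so halving them allows for both mates being counted.

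Named were, per comparison and direction, the 5 called members with the largest folds among those with 200 reads or more, the 3 most abundant members of each group, all DREB2 members, and the 3 most abundant called genes of each list. Others were named after their values were seen. A gene that this rule selects is not reported here. Groups and lists of ethylene, cold, hypoxia, defense, rapid stress, clock and tissue marker genes were written from *Arabidopsis* knowledge, and members and lists were chosen with earlier results of these data known.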

Additional observations from a re-analysis of the deposited data

How the results depend on the processing

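No call changed direction with total reads, TMM, halved counts or a stricter interval, but these settings could hardly reverse one. Halved counts and a stricter interval leave the fold nearly unchanged. A reversal would need a larger shift than either scaling made, so the lack of reversals is no measure of robustness. No paired analysis was possible because each group is 1 library. Of the values recomputed as planned, 98 stayed within 1.5 times or within the interval of the median, and 24 moved. That interval comes from the ordered values of the members and says nothing of spread between plants. It is wide, at -1.26 to 0.07 for euphyllas over 11 day cotyledons. A median there that went from -0.59 to -0.10 thus counted as unmoved.

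In 3 day cotyledons over seeds (29 members called), 100 reads over the libraries left 17 and a 4-fold limit 18. The 5 higher members became 3 with total reads or with 20 reads in the compared pair, 0 at 100 reads, 2 at 4-fold, and 1 with the stricter interval or halved counts. In 7 over 3 day cotyledons, the 8 lower members became 5 at 100 reads, and 18 with seeds in place of 3 day cotyledons, an alternative chosen after seeing the data. In 11 over 7 day cotyledons (23 called), the 4-fold limit left 14, of which 8 were higher, and 20 reads in the pair or 100 reads left 5 of the 8 lower. With 3 day in place of 7 day cotyledons, also chosen after seeing the data, 35 were called and 28 of them higher.

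In euphyllas over 11 day cotyledons (27 called), 4-fold left 15, with 5 higher and 10 lower. The 8 higher became 4 with 20 reads in the pair, 100 reads, the stricter interval or halved counts, and the 19 lower became 12 with total reads. At 100 reads, 9 members were highest in seeds, 0 in 3 day cotyledons and 2 in euphyllas. Scaling by total reads moved the median log2 ratio of all unigenes to -0.30, -0.36, -0.03 and 0.36 in the 4 comparisons, from -0.06, 0.04, 0.00 and -0.08. The fewer calls at higher minimums and limits follow from their construction, and the cause of the other changes was not tested. Depth limits members with few reads most: the median member had 163 reads over the 5 libraries, and variation between plants could not be measured.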

Other observations

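Hypoxia genes and the N-degron pathway that degrades group VII factors were on a list of their own, as no member by symbol belongs to that group. Of 10 tested, 7 were lower and 0 higher in 3 day cotyledons relative to seeds, 4 lower and 0 higher at 7 than at 3 days, 5 higher and 1 lower at 11 than at 7 days, and 1 higher and 4 lower in euphyllas than in 11 day cotyledons. *ADH1*, the alcohol dehydrogenase of fermentation, had 9329 normalized counts in seeds, then 1247, 634 and 545 at 3, 7 and 11 days in cotyledons, and 510 in euphyllas. *HRA1*, which restrains the hypoxia response, had 1903 in seeds, 531, 26.3 and 189 in the cotyledons and 164 in euphyllas.

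Of the 4 group VII factors, 2 were lower and 0 higher in 3 day cotyledons relative to seeds. *RAP2.12* had 1194 normalized counts in seeds, 927, 656 and 1013 in the cotyledons and 881 in euphyllas. It was not called in any of the 4 comparisons. *RAP2.3* had 998 in seeds, 174, 165 and 1174 in the cotyledons and 544 in euphyllas, and *HRE1*, an ethylene-responsive member, had 34.7 in seeds and at most 9.65 elsewhere.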
